A study of Rattus with 108 samples.

Results

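The 150 genes described here rose in skeletal muscle of rats within 2 days of a skin and muscle incision with retraction (SMIR) and were still high at 10 days. They were chosen from 32623 genes by their levels in 5 groups of muscle libraries. In SMIR muscle, the mean level at 2 days and at 10 days had to be at least 4 times that at 0 day. In muscle after lateral paw incision (LPI), the mean at 6 hours had to exceed 0.5 times that at 0 day. Levels were CPM, counts scaled to the library total, with 1 CPM added to each group mean before a ratio was taken. The 10 days condition was met by 1630 genes, the 2 days condition by 1194 of these, and the LPI condition by 876, with 318 dropped at that last step. The 150 with the highest ratio of 10 days to 0 day were kept.

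The study compared rats after LPI, standing for acute postsurgical pain, with rats after SMIR, standing for chronic postsurgical pain. Skin and muscle of the incised area and dorsal root ganglia (DRG, which hold the cell bodies of sensory neurons) were taken at 0 day, 6 hours, 2 days and 10 days after either surgery, and at 32 days after SMIR alone. The 36 rats, perfused with saline, gave 108 libraries in 27 groups of 4, and no genotype or drug distinguished the groups. The labels number animals, while the extraction protocol speaks of pooled RNA, so the tests measure the spread between libraries.

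Injured skeletal muscle loses fibres and is entered first by neutrophils and then by macrophages, which clear debris. Satellite cells, the stem cells of muscle, then divide and fuse into new fibres while fibroblasts lay down matrix, and both cell entry and matrix deposition normally subside as the tissue heals. Genes that stay high past the first days can belong to any of these processes. The files give Ensembl gene IDs without names, and 0 of these IDs could be paired with a symbol, so no member is assigned to a process and members are given by ID or by rank in the 10 days ratio.

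Depth in the 4 muscle and skin tables ran from 19080096 to 41654479 counts a library. Tissue labels were examined with genes that at 0 day in both models had 5 CPM or more in 1 tissue and a level 8 times or more that in either of the others, which gave 106 muscle-enriched and 491 skin-enriched genes. This grouping was made after the data were seen and itself uses the 0 day libraries. Muscle-enriched genes held 1.40 to 9.56% of counts in the 20 SMIR muscle libraries, and skin-enriched genes at most 0.384%. LPI muscle libraries were mixed. Library 1 of the 0 day group had 0.0809% of its counts in muscle-enriched genes, against 2.52 to 7.77% in the other 3. All 4 libraries at 2 days had 0.0443 to 0.288%, and 3 of them had 4.33 to 6.13% in skin-enriched genes. A single library at 6 hours and another at 10 days also had 4.44 and 5.05% there. The same conditions gave 837 DRG-enriched genes. Of the members, 5 were themselves skin-enriched, 5 were DRG-enriched and 1 was muscle-enriched.

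In SMIR muscle the members were low at 0 day, high at 2 days and about as high at 10 days. Their median level across the 150 genes, from group means, was 1.99 CPM at 0 day, 21.0 CPM at 6 hours, 67.6 CPM at 2 days, 59.4 CPM at 10 days and 8.46 CPM at 32 days. The 0 day, 2 days and 10 days values chose the members, so this course is a description and nothing is read from its calls. A call here and below is a Benjamini-Hochberg adjusted p under 0.05 over all genes of the table with edgeR's quasi-likelihood test. By that measure 147 members were higher and 0 lower at 2 days than at 0 day, where 25.1% of all genes tested were higher and 23% lower. At 10 days 149 were higher and 0 lower, where 22.2% were higher and 20.9% lower. At 6 hours 109 were higher and 0 lower, where 17.7% were higher and 14% lower. The ratio of 10 days to 0 day ran from 10.4 to 864 with a median of 15.7. At the limit, ranks 149 and 150 had ratios of 10.4033 and 10.3986, and the first 2 genes left out had 10.3711 and 10.3226. The ratio of 2 days to 0 day ran from 4.13 to 3746 with a median of 18.2.

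The time of the highest mean differed among members. It fell at 2 days for 74, at 10 days for 62 and at 6 hours for 14, and the 10 days mean was above the 2 days mean in 67. As a group the members held 0.171% ± 0.0581 of counts at 0 day, 1.42% ± 0.790 at 6 hours, 3.88% ± 0.942 at 2 days, 3.47% ± 2.21 at 10 days and 0.361% ± 0.311 at 32 days (SD, n = 4 each). A few genes supplied most of the RNA. On the length-corrected scale of the deposited FPKM values (fragments scaled to gene length and library size), the top 10 members held 59.0% of the members' summed FPKM at 10 days. The median member stood at 0.828 FPKM at 0 day and at 23.5 FPKM at 10 days, when 21 members were at 100 FPKM or more.

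**Figure D1:**
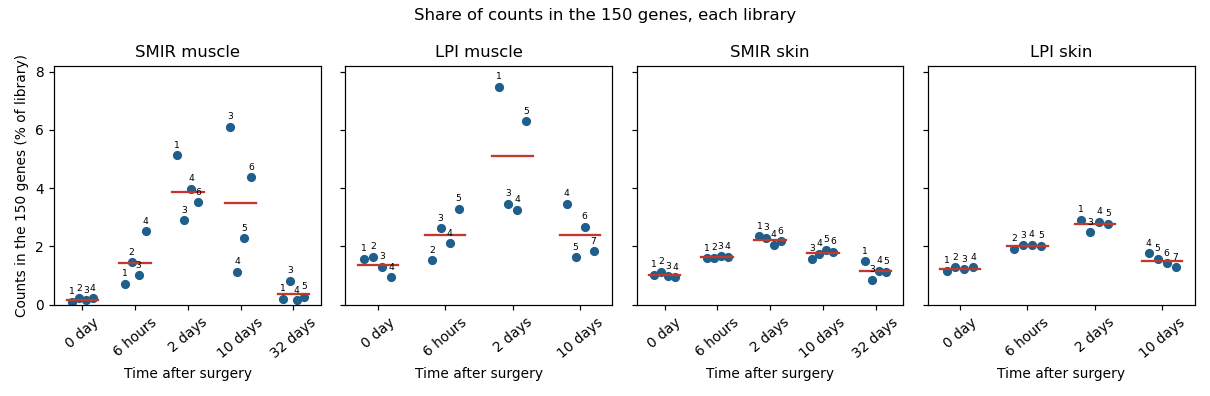
Percent of each library's counts that fell in the 150 genes, by time after surgery, in the 4 muscle and skin tables. Each point is 1 library with its number and each red line is the mean of 4; SMIR muscle libraries ran from 0.101 to 0.219% at 0 day and from 1.14 to 6.11% at 10 days, and SMIR skin libraries at 32 days from 0.853 to 1.49%.

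Libraries of 1 time point differed widely. The share of counts in members at 10 days was 6.11% in library 3, 1.14% in library 4, 2.28% in library 5 and 4.37% in library 6. Library 3 was the highest of the 4 in 111 members and library 4 the lowest in 118. The median log2 ratio to the 0 day mean was 4.86, 2.61, 3.12 and 3.99 in libraries 3, 4, 5 and 6. The choice rests on these means: without library 3 of 10 days, the same rule kept 122 of the 150. The share of muscle-enriched genes moved the other way, at 1.92% in library 3, 6.86% in library 4, 5.81% in library 5 and 2.28% in library 6. Its part in the members' levels was not tested, and in bulk tissue fewer cells of a type cannot be told apart from less RNA per cell. Gains were also seen in the summed level of skin-enriched genes, from 0.0315% of counts at 0 day to 0.169% at 10 days, and of DRG-enriched genes, from 0.199% to 0.494%. Each of these 2 sums includes 5 members, which were chosen for their rise, so part of each gain is fixed by the choice.

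At 32 days the members stood well below their 10 days level, and 1 of the 4 libraries stood apart. The share of counts in members was 0.202% in library 1, 0.822% in library 3, 0.154% in library 4 and 0.266% in library 5, against 0.101 to 0.219% at 0 day. Library 3 was the highest in 131 members, and its muscle-enriched share was 2.61% against 6.95 to 9.35% in the others. The median log2 ratio to 0 day was 1.28 with all 4 libraries, and 101 members were at least 2 times and 27 at least 4 times their 0 day level. Without library 3 the median was 0.60, with 37 members at least 2 times and 11 at least 4 times above. Every 32 days library exceeded every 0 day library in 53 members, and the same held for 7.12% of the genes tested. Low 0 day levels chose the members, so nothing is read from that count. By edgeR, 3 members were called higher at 32 days than at 0 day (ranks 5, 11 and 19) and 0 lower, where 0.0727% of all genes tested were higher and 0.0121% lower. An unadjusted p under 0.05 was found for 80 members, and DESeq2 called 42 higher. Leaving out any 1 of the 4 libraries of 0 day gave 0 calls, leaving out library 1 of 32 days gave 9, and leaving out library 5 gave 1. No share over all genes is given for the unadjusted p, DESeq2 or the left-out fits. Those counts cannot be set against the shares of the main fit. Between 10 and 32 days 131 members were called lower and 0 higher (background 12.8% lower and 14.6% higher). Their median log2 change was -2.56. High 10 days levels chose the members, so this too is a description.

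**Figure D2:**
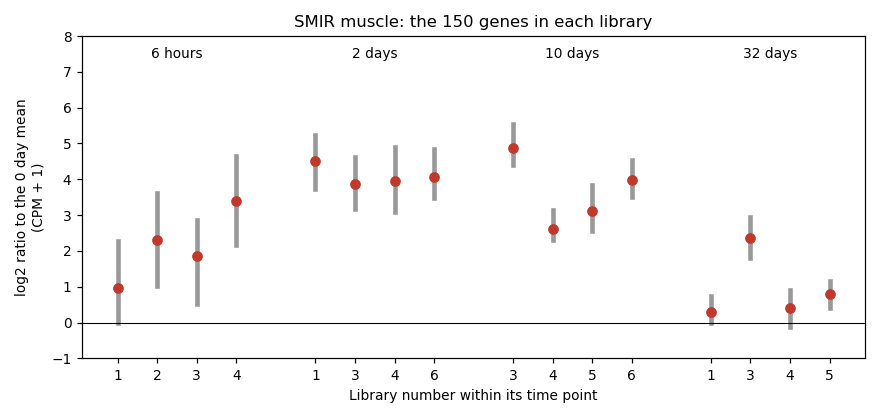
Median (red point) and range between quartiles (grey bar) of the log2 ratio of CPM plus 1 to the 0 day mean over the 150 genes, for each SMIR muscle library after surgery. Medians at 10 days ran from 2.61 in library 4 to 4.86 in library 3, and at 32 days library 3 stood at 2.36 against 0.29 to 0.79 in the others.

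How fast a member rose divided the set. With the ratio at 6 hours to 0 day in SMIR muscle, 90 members were at least 4 times up (early), 28 were under 2 times (late) and 32 lay between (intermediate). These classes were drawn after the data were seen, and the libraries of 6 hours differed widely. Library 4 was the highest in 132 members, with 118 members at least 4 times the 0 day mean. Library 1 was the lowest in 116, with 44 members at least 4 times that mean. The classes rest on the mean of such unlike libraries. Early members had a median log2 ratio of 3.39 at 6 hours, 4.65 at 2 days and 3.95 at 10 days. Late members had 0.47, 3.39 and 4.14, so the late class stood highest at 10 days and the early class at 2 days. At 32 days the medians were 1.42 for early and 0.96 for late members. The mean at 6 hours was below that at 0 day in 4 members.

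**Figure D3:**
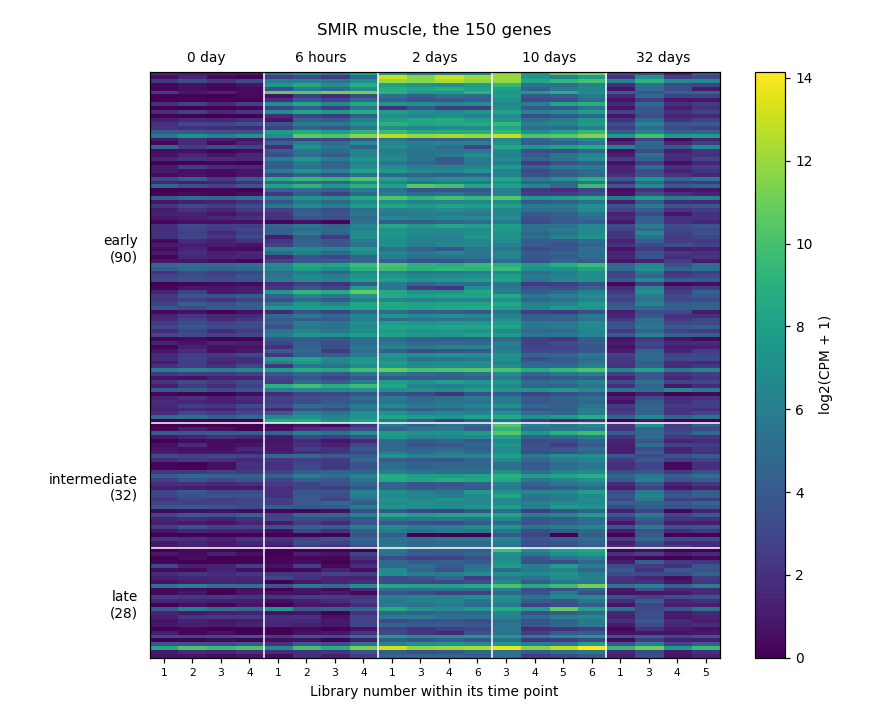
Level of each of the 150 genes (rows, by class at 6 hours and then by rank) in each SMIR muscle library (columns), as log2 of CPM plus 1. The 90 early genes brighten at 6 hours and the 28 late genes at 2 days; library 3 stands out at 10 and 32 days.

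The gene with the highest ratio, ENSRNOG00000058645, was nearly silent in SMIR muscle at 0 day, with 1.99, 1.08, 1.09 and 0.912 CPM in libraries 1 to 4. It reached 41.6, 127, 46.8 and 270 CPM at 6 hours and 205, 68.5, 77.7 and 122 CPM at 2 days. At 10 days it stood at 3773, 184, 1488 and 2384 CPM in libraries 3 to 6. Every library from 6 hours to 10 days was above all of 0 day, and library 4 of 10 days lay within the range of the 2 days group. At 32 days it had 8.90, 9.04, 1.23 and 14.2 CPM, below all libraries of 10 days and in 3 of 4 above all of 0 day.

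The second, ENSRNOG00000043451, peaked earlier. SMIR muscle had 0.430, 1.82, 0.234 and 0.0720 CPM at 0 day and 8470, 3080, 8583 and 4407 CPM at 2 days. At 10 days it had 4044 CPM in library 3 but 167, 70.3 and 227 CPM in libraries 4 to 6, so its place in the ranking rests largely on library 3. The same was seen at 32 days, with 161 CPM in library 3 against 3.23, 5.41 and 8.88 CPM in the others.

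The rank 3 gene appeared late. It had 0 to 0.289 CPM at 0 day and 0 to 0.107 CPM at 6 hours in SMIR muscle, then 15.9 to 50.2 CPM at 2 days and 119, 251, 359 and 989 CPM at 10 days. At 32 days it was again at 0 to 0.513 CPM. All 4 libraries of 10 days exceeded those of 2 days. The rank 4 gene had no count in any 0 day library and 45.4, 70.0, 112 and 1312 CPM at 10 days. It was 1 of 3 members without a count at 0 day. The rank 9 gene, by contrast, was highest at 6 hours, at 1338 to 2281 CPM, from 0.384 to 4.67 CPM at 0 day, with 112 to 459 CPM at 10 days and 14.1 to 26.4 CPM at 32 days. In skin it was near 0 throughout, with group means of 0.0536 to 1.16 CPM.

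LPI muscle started from a higher level. At 0 day 146 members had a higher mean CPM in LPI than in SMIR muscle, as did 77.2% of the genes tested, and the median member stood at 16.0 CPM. Since the rule favours genes that were low in SMIR muscle at 0 day, this direction is partly fixed by the choice. Muscle-enriched genes held 0.0809 to 7.77% of counts in LPI muscle at 0 day and 7.68 to 9.56% in SMIR muscle. The site of the muscle also differs between the models. Neither can be told apart from a higher starting level of the members. In LPI the 0 day mean in skin exceeded that in muscle for 41 members (46.3% of genes tested), and in SMIR for 140 (82.3%). ENSRNOG00000058645 shows the gap, with 169, 354, 167 and 126 CPM in LPI muscle at 0 day.

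At 2 days after LPI, in libraries that took no part in their choice, most members rose in muscle as well. Of 150 tested, 116 were called higher than at 0 day and 1 lower, where 21.8% of all genes tested were higher and 18.7% lower. The median log2 change was 2.12, against 0.01 over all genes. The LPI 0 day libraries did enter the rule through the 6 hours condition. Among the 150 genes chosen without that condition, 98 were called higher. ENSRNOG00000058645 rose to 1586, 1106, 2666 and 2549 CPM, all above the 0 day libraries, a log2 change of 3.20 ± 0.52 (SE; edgeR adjusted p = 0.000701). ENSRNOG00000043451 had 9376, 840, 959 and 10525 CPM at 2 days against 82.0, 500.2, 24.9 and 17.6 CPM at 0 day, a log2 change of 5.09 ± 1.42 (SE; edgeR adjusted p = 0.0128). These groups did not overlap in either gene. The mean share of muscle-enriched genes fell from 3.37% at 0 day to 0.122% at 2 days, with at most 0.288% in a library. Library 1 of 0 day was already at 0.0809%, within the range of 2 days. The mean share of skin-enriched genes rose from 0.111% to 4.16%, but library 4 of 2 days had 0.241%. The part of these shifts in the members' rises was not tested.

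By 10 days after LPI many of these members had fallen. Compared with 2 days, both groups being outside the rule, 86 members were called lower and 4 higher, where 14.9% of all genes were lower and 13% higher. The members' median log2 change was -1.45. Adding each library's length trend (the slope of its log counts on log gene length) to the model gave 39 lower, with a median of -1.36. With a term for the library number (replicate block) 0 were called lower, with a median of -1.11. Muscle-enriched genes held 0.0443 to 0.288% of counts at 2 days and 0.502 to 3.98% at 10 days. Skin-enriched genes held 4.16% and 1.39% on average. The part of these shifts in the fall was not tested. Against 0 day, 5 members were called higher and 0 lower by edgeR, where 0.172% of all genes were higher and 0.148% lower, and 55 members had an unadjusted p under 0.05. The median log2 change was 0.66, and DESeq2 called 33 higher. That count of 5 went to 15 without library 7 of 10 days and to 0 without any other single library of the 2 groups. For the unadjusted p, DESeq2 and the left-out fits no share over all genes is given. Those counts cannot be set against the shares of the main fit. By class, of the early members 66 of 90 were lower at 10 days than at 2 days, and of the late members 7 of 28. Against 0 day at 10 days, 2 of 28 late and 2 of 90 early members were called higher, with median log2 changes of 1.50 and 0.46; the difference between the classes was not tested.

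The rank 3 gene is a late member that rose far more in LPI muscle than its class median. From 0 to 10 days its log2 change was 9.36 ± 1.71 (SE; edgeR adjusted p = 0.0433), against a median of 1.50 for late members. This gene was among the 5 members called higher there, and its call was fragile. Once the length trend entered the model, 0 members were called, and likewise when rarely counted genes were kept. Leaving out any single library of 0 day or 10 days, except library 7 of 10 days, also gave 0. The rank 3 gene had 0.576 to 1.47 CPM at 0 day, 0.148 to 1.05 CPM at 6 hours and 53.6 to 868 CPM at 2 days. At 10 days 3 libraries had 386, 904 and 1669 CPM and 1 had 0.560 CPM, a value within the range of 0 day. At 6 hours after LPI 71 members were called higher than at 0 day and 0 lower (background 20.6% higher and 15.4% lower); the rule set a lower limit on that ratio, so nothing is read from it. Of those, 67 were early members and none was late.

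**Figure D4:**
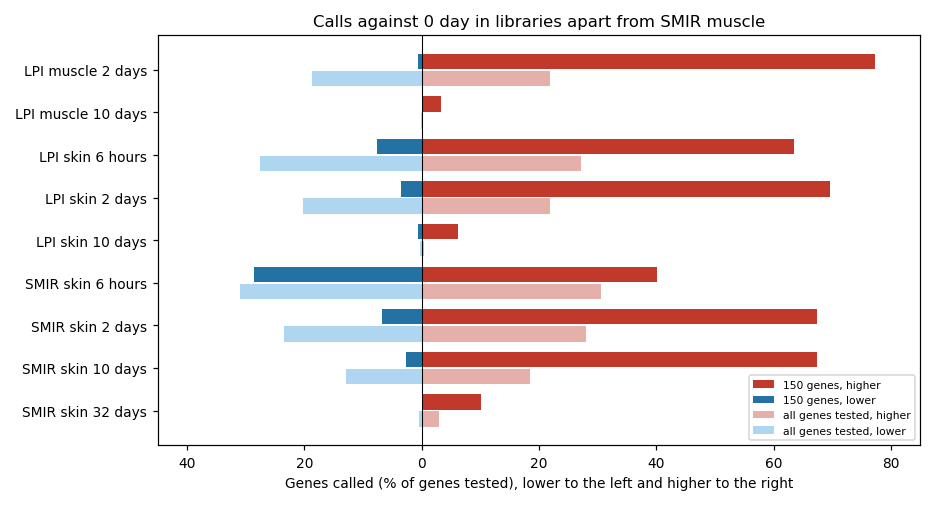
Percent of the 150 genes (dark bars) and of all genes tested (pale bars) called higher, to the right, or lower, to the left, than at 0 day, in LPI muscle and in skin of both models. The dark bars to the right exceed the pale ones in each comparison. In SMIR skin at 6 hours the dark bars extend both ways, with 59 genes higher and 42 lower.

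In LPI skin, whose libraries took no part in the choice, the members rose early and most were no longer called by 10 days. Of 145 members that passed the filter on low counts there, 92 were called higher and 11 lower at 6 hours (background 27.2% higher, 27.5% lower), with a median log2 change of 1.09. At 2 days 101 were higher and 5 lower (21.8% and 20.2%), with a median of 1.47. At 10 days 9 were higher and 1 lower by edgeR (0.323% and 0.255%), 72 had an unadjusted p under 0.05, the median was 0.63, and DESeq2 called 43 higher. The count of 9 became 44 without library 7 of 10 days, 16 without library 3 of 0 day, and 0 without library 1, 2 or 4 of 0 day or library 5 or 6 of 10 days. Here too the unadjusted p, DESeq2 and left-out counts are given without a share over all genes. They cannot be set against the shares of the main fit. The members' share of counts was 1.17 to 1.28% at 0 day, 1.93 to 2.05% at 6 hours, 2.49 to 2.92% at 2 days and 1.28 to 1.76% at 10 days, so that the first 3 groups did not overlap.

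The classes drawn from SMIR muscle gave different counts in LPI skin. At 6 hours 76 of 89 early members were higher and 2 lower, while of 24 late members tested 3 were higher and 6 lower. The medians were 1.65 and -0.29. At 10 days the order was the other way, with medians of 0.48 for early and 1.04 for late members, although few were called. No test of the difference between the classes was made. ENSRNOG00000043451 was almost absent from LPI skin at 0 day, at 0.510, 0.300, 0.889 and 0.577 CPM, and reached 317, 418, 871 and 302 CPM at 2 days, a log2 change of 9.81 ± 1.18 (SE; edgeR adjusted p = 2.59e-05).

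**Figure D5:**
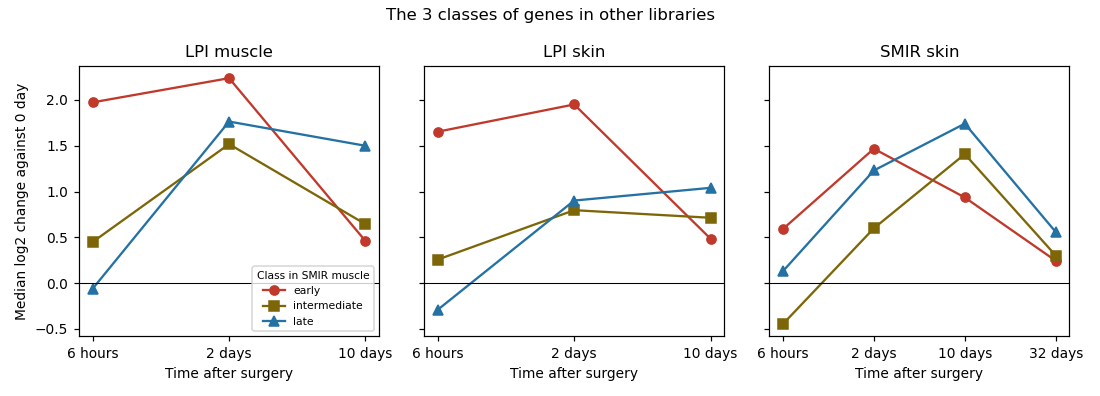
Median log2 change against 0 day of the early, intermediate and late classes, which were drawn from SMIR muscle at 6 hours, in LPI muscle, LPI skin and SMIR skin. Early members peaked at 2 days in all 3 tables, and late members had the higher median at 10 days in each, 1.74 against 0.94 in SMIR skin.

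In SMIR skin the calls at 6 hours went both ways. There 59 of 147 members tested were called higher and 42 lower (background 30.6% and 31%), with a median log2 change of 0.22. This median turned to -0.21, with 19 called higher and 20 lower, when the length trend was added to the model. Of 145 members tested in both skin tables, 46 were called higher at 6 hours in both (31.7%, against 17.1% of 15926 genes) and 4 lower in both (2.76%, against 15.1%). Opposite calls were made for 18 that were higher in LPI and lower in SMIR (12.4%, against 2.39%) and for 6 the other way (4.14%, against 4.79%). The difference between the 2 models at 6 hours was not tested. At 2 days 99 were higher and 10 lower (28% and 23.5%), with a median of 1.20. With the length trend in the model 7 were called higher, and the median was 0.67. That trend lay at 0.587 to 0.610 in all 2 days libraries of SMIR skin and at 0.744 to 0.795 in all 0 day libraries, so trend and time cannot be told apart. ENSRNOG00000043451 had 2.35, 1.37, 4.14 and 6.72 CPM at 0 day and 569, 637, 412 and 564 CPM at 2 days in SMIR skin. Its log2 change of 7.42 ± 1.22 (SE; edgeR adjusted p = 0.000117) became 2.26, and was not called, with that trend.

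At 10 days the members were still high in SMIR skin. There 99 were called higher and 4 lower (background 18.5% and 12.9%), with a median log2 change of 1.31. The length trend at 10 days, 0.733 to 0.770, was close to that of 0 day, and 1.58 to 1.89% of counts were in members, above all 4 libraries of 0 day with 0.943 to 1.13%. ENSRNOG00000058645 had 57.7, 64.1, 57.7 and 45.2 CPM at 0 day and 244, 342, 390 and 273 CPM at 10 days, a log2 change of 2.50 ± 0.51 (SE; edgeR adjusted p = 0.00142). The rank 3 gene had 7.30 to 13.0 CPM at 0 day, 0.428 to 1.78 CPM at 6 hours, 4.97 to 7.58 CPM at 2 days and 125 to 550 CPM at 10 days. All libraries of 10 days exceeded those of the 3 earlier times, and those of 32 days, at 5.14 to 17.1 CPM. The rank 5 gene had 82.9 to 111 CPM at 0 day, and every library of each later time was above these. It had 800 to 959 CPM at 6 hours, 348 to 594 CPM at 2 days, 586 to 907 CPM at 10 days and 211 to 653 CPM at 32 days.

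Set against each other in 1 model, the change from 0 to 10 days was larger in SMIR than in LPI skin for 29 of 147 members and smaller for 1, where 7.84% of all genes tested were larger and 6.09% smaller. The median difference was 0.52 on the log2 scale. With the length trend in the model 19 were larger and 3 smaller, with a median of 0.43. The 2 models also differ in the site of the skin, which cannot be told apart from the surgery. The rule asked for a high 10 days ratio in SMIR muscle and set no 10 days condition in LPI. Skin and muscle came from the same rats, so the choice may favour a larger change in SMIR.

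Of the 4 members that fell in SMIR skin at 10 days, the 2 named next were picked after their values were seen. ENSRNOG00000050251, rank 43, went from 47.6, 52.1, 40.9 and 42.1 CPM to 26.6, 19.8, 33.5 and 27.6 CPM, without overlap, a log2 change of -0.74 ± 0.25 (SE; edgeR adjusted p = 0.0320). It was no longer called without library 1 or 2 of 0 day or library 3, 4 or 6 of 10 days, with changes of -0.88 to -0.64 over all 8 such fits. In SMIR muscle the same gene had 0.260 to 0.720 CPM at 0 day and 10.7 to 75.3 CPM at 10 days. ENSRNOG00000060329, rank 77, went from 40.2, 25.2, 40.4 and 32.7 CPM to 19.4, 24.6, 18.4 and 23.8 CPM in SMIR skin, again without overlap, a log2 change of -0.66 ± 0.21 (SE; edgeR adjusted p = 0.0244). Its call was lost without library 1 or 3 of 0 day or library 3 or 5 of 10 days, with changes of -0.78 to -0.58. It was the 1 member whose 10 days change was called smaller in SMIR than in LPI skin, by -1.70 ± 0.34 on the log2 scale (SE; edgeR adjusted p = 0.00146).

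At 32 days fewer members were called in SMIR skin, where 15 were higher and 0 lower (background 3.03% and 0.525%), with a median log2 change of 0.30. Without library 3 of 32 days 31 were called, and 5 without library 1 of 32 days or without library 1, 3 or 4 of 0 day. Shares over all genes are not given for these left-out fits. Library 1 had the highest share of counts in members, 1.49%, against 0.853, 1.16 and 1.13% in libraries 3, 4 and 5. Library 3 stood highest in SMIR muscle at this time and lowest in SMIR skin.

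At 2 days LPI muscle, LPI skin and SMIR skin each had 0 day libraries of their own. LPI muscle and LPI skin came from the same rats. The 0 day libraries of LPI muscle also entered the rule through the 6 hours condition. Of 145 members tested in all 3 tables, 75 were called higher in each (51.7%, against 9.11% of the 15207 genes tested in all 3), 34 in 2 of them (23.4%, against 14.1%), 23 in 1 (15.9%, against 20.2%) and 13 in none (8.97%, against 56.5%). Of the 116 called higher in LPI muscle at 2 days, 91 were also called higher in LPI skin at 2 days, which was 78.4% of the first list and 90.1% of the second. Over all genes called higher in these comparisons the shares were 52.6% and 53.0%. Skin-enriched genes held 0.241 to 6.13% of counts in LPI muscle at 2 days, against 0.0826 to 0.135% at 0 day. Their part in these overlaps was not tested. Most of the SMIR skin calls at 2 days were not made with the length trend in the model, as given above. Members were somewhat longer than other genes, with a median effective length of 2808 bases against 2307 over all genes tested in SMIR muscle.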

How the data were processed

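RNA was sequenced from strand-specific TruSeq libraries on a NovaSeq instrument, per the labels' protocols. The authors deposited whole-number read counts per gene, 1 table for each model and tissue, and matching FPKM values. FastQC 0.11.2, STAR and StringTie and the builds rn6 and hg38 are listed, per the submitters' processing notes; counting settings are not given in the sources used here, so reads shared between near-identical genes could not be singled out. The deposited FPKM values gave levels per length and, as the ratio of CPM to FPKM, effective gene lengths.

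Column names give model, time code, number and tissue. By elimination, code 1 stands for 6 hours; columns were assigned to groups, and libraries are called by the number in their column. Counts of the 162 pairs of libraries within groups differed by a chi-square of at least 11.8 per degree of freedom, so none agreed within sampling noise.

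Each table was fitted whole with edgeR 4.0.16 in R 4.3.3 (TMM, filterByExpr, robust quasi-likelihood test, two-sided, Benjamini-Hochberg over all genes tested), and only members are reported. The difference between models was fitted over both skin tables. Alternatives were normalization by DESeq2's size factors, DESeq2 1.42.0 itself, no filter, the compared groups alone, a length trend, a replicate block, a minimum of 2-fold, and each library left out. Scripts were tested on simulated data. For the 3 members without counts in SMIR muscle at 0 day, setting the 0 day group's sum to 3 counts left the medians as printed.

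The members, lists and classes were chosen with earlier results of these data known. Named IDs are the 2 with the highest 10 days ratio and 2 that fell. The genes of ranks 3, 4, 5 and 9 were described by rank alone, and no rule set in advance chose them. The files hold no symbols and 0 of the 47357 genes of the reference table carry an Ensembl ID, so the rule for named genes, the 23 lists of 349 symbols and the cell type markers could not be applied; no sequence is shown. DRG libraries served to define tissue-enriched genes. Library 4 of SMIR DRG at 0 day had 3.37% of counts in muscle-enriched and 3.34% in DRG-enriched genes. The others of that group had 0.0213 to 0.0939% and 17.5 to 20.0%. Library 4 was kept in the 0 day mean that defined these genes.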

Additional observations from a re-analysis of the deposited data

Results flagged for a closer look

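In 11 of 90 groups of 4 libraries examined, 1 library lay far from the other 3, by a test that flags about 1 in 20 groups by chance. The share of counts in the 150 genes in SMIR muscle at 32 days was 0.822% in library 3 and 0.154 to 0.266% in the others. ENSRNOG00000043451 stood apart in 5 groups. It had 500.2 CPM in library 2 of LPI muscle at 0 day against 17.6 to 82.0 CPM, 275 CPM in library 5 of LPI muscle at 6 hours against 14.8 to 33.0 CPM, and 4044 CPM in library 3 of SMIR muscle at 10 days against 70.3 to 227 CPM. At 32 days it had 161 CPM in library 3 of SMIR muscle against 3.23 to 8.88 CPM, and 141 CPM in library 1 of SMIR skin against 0.935 to 15.0 CPM.

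ENSRNOG00000058645 had 1.99 CPM in library 1 of SMIR muscle at 0 day against 0.912 to 1.09 CPM. ENSRNOG00000050251 had 10.7 CPM in library 3 of SMIR muscle at 32 days against 1.88 to 2.99 CPM, and 45.3 CPM in library 3 of SMIR skin at 6 hours against 37.0 to 38.1 CPM. ENSRNOG00000060329 had 43.2 CPM in library 5 of LPI muscle at 10 days against 16.3 to 20.8 CPM, and 75.1 CPM in library 3 of SMIR muscle at 10 days against 10.6 to 21.0 CPM.

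The change from 0 to 10 days in skin differed between the models for some members in a test of the difference itself. Of 147 members tested, it was larger in SMIR for 29 and smaller for 1, ENSRNOG00000060329, with a log2 difference of -1.70. Over all genes tested 7.84% were larger and 6.09% smaller. With the length trend in the model 19 members were larger and 3 smaller. The rule set a 10 days condition in SMIR muscle alone, which may favour this direction.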

How the results depend on the processing

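DESeq2 called 33 members higher in LPI muscle at 10 days against 0 day (edgeR 5), 43 in LPI skin at 10 days (9) and 42 in SMIR muscle at 32 days (3). Without the filter on low counts the counts were 0 in LPI muscle at 10 days, 4 in LPI skin at 10 days and 8 in SMIR skin at 32 days (15). With the compared groups alone they were 2 in LPI muscle and 0 in LPI skin at 10 days, 0 in SMIR muscle and 0 in SMIR skin at 32 days, and 84 lower in SMIR muscle at 32 against 10 days (131). With the length trend they were 0 in LPI muscle and 0 in LPI skin at 10 days, 39 lower in LPI muscle at 10 against 2 days (86), 19 for the difference between models (29), 6 in SMIR muscle at 32 days, and 19 (59), 7 (99) and 4 in SMIR skin at 6 hours, 2 days and 32 days; the median log2 change in SMIR skin at 6 hours reversed from 0.22 to -0.21. Requiring 2-fold left 9 in SMIR skin at 32 days. Taking the 75 with the highest ratio keeps 75 members by construction. Shares over all genes are not given for these alternatives or for those below. The cause of these shifts was not tested.

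Over 86 pairs of muscle or skin libraries with the same number in the column name, the correlation of deviations from the group means ran from -0.63 to 0.54 and exceeded 0.1 in 25. Between SMIR muscle at 10 and 32 days all 3 pairs exceeded it (0.44, 0.31 and 0.27), and the replicate block there gave 98 lower (131). The same held between LPI muscle at 6 hours and 2 days, which were not compared. In other comparisons the block gave 0 lower in LPI muscle at 10 against 2 days (median log2 change -1.11, from -1.45), 0 in SMIR muscle at 32 days and 5 in SMIR skin at 32 days. It was not fitted for LPI muscle or LPI skin at 10 days against 0 day, with fewer than 2 shared numbers, or between models.

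Leaving out 1 library gave 103 to 116 higher in LPI muscle at 2 days, 0 to 15 at 10 days, and 67 to 91 lower at 10 against 2 days. In LPI skin it gave 87 to 92 at 6 hours, 95 to 101 at 2 days and 0 to 44 at 10 days. In SMIR skin it gave 54 to 60, 92 to 98, 87 to 98 and 5 to 31 at 6 hours, 2, 10 and 32 days, and 22 to 33 for the difference between models. In SMIR muscle it gave 0 to 9 at 32 days and 88 to 141 lower at 32 against 10 days. The rule kept 122 to 149 members.

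Of 229 alternative values for the main counts, 179 stayed within 1.5 times. Alternatives for the gene lists were not run, for want of symbols.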
